A study of Mus musculus with 7 samples.

Results

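The interleukin-1 (IL-1) family and tumour necrosis factor were followed through 9 genes in epithelial cells from the gut of mice that had lost Mob1a and Mob1b, the adaptors of the Lats kinases in Hippo signalling. The 9 genes were chosen by symbol and comprised the ligands Il33, Il18, Il1a and Il1b, the receptor antagonist Il1rn, the receptors Il1r1, Il1r2 and Il1rl1, and Tnf. They were measured by 11 of the 55681 probes on the array and are 9 of its 20887 genes with a symbol. Il33, Il18, Il1r2 and Tnf, 4 of the 9, had a signal well above background on at least 2 of the 7 arrays and entered the main test, as did 13802 of all genes with a symbol. A gene that entered only through the arrays where it was bright had to differ, so Il1r2 and Tnf are described mainly by their signals.

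The control group held 2 arrays of floxed mice without Cre (Mob1a f/f; Mob1b f/f), labelled as wild type. The knockout mice carried the same floxed alleles with Villin-creERT2, a tamoxifen-inducible Cre driven by the Villin promoter of the intestinal epithelium, and were sampled at day 4 (2 arrays), day 7 (2 arrays) and day 10 (1 array) after tamoxifen. All mice, controls included, were C57BL/6J-backcrossed males injected with tamoxifen at 80 mg/kg daily for 2 days at 8 weeks of age, and cells were released from the proximal intestine with 2 mM EDTA. The labels place the controls at day 7 after tamoxifen, whereas the design text calls that group time 0. The design text states that the mice of a time point were different animals, and it does not mention the day 10 sample, which has no replicate.

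Both Mob1b probes were lower on all 5 knockout arrays (levels from -3.43 to -2.42) than on the controls (from -1.68 to -0.90), whereas the single dim Mob1a probe was not lower on the day 7 or day 10 arrays, and whether it lies in the deleted part is not known. All 7 arrays lay on 1 slide, the control and day 4 arrays in its row 1 and the day 7 and day 10 arrays in its row 2, so slide position and group cannot be told apart where day 7 or day 10 is set against the controls. The 75th percentile of the signal, to which levels are scaled, was 315 to 395 on 6 arrays and 545 on the day 10 array. All 12 epithelial markers were well above background on every array, with a summed level of 2145 to 2589 on the other 6 arrays and 1856 on the day 10 array.

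IL-1 family cytokines are alarm signals of barrier tissues. IL-1α and IL-1β act through the receptor encoded by Il1r1, and are opposed by the antagonist encoded by Il1rn and by the decoy receptor encoded by Il1r2. IL-33, a nuclear protein released from damaged cells, signals through ST2, encoded by Il1rl1, on mast cells, group 2 innate lymphoid cells and regulatory T cells. IL-1β and IL-18 are made as precursors that inflammasome caspases cut, and gut epithelium stores the IL-18 precursor. TNF, made mainly by myeloid and T cells, and the IL-1 receptors both activate the transcription factor NF-κB.

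The 250 bases before 6 RefSeq transcription starts of member genes are shown because these genes moved in different ways on the arrays. Il33, which rose, has 2 annotated starts, Il18 fell at day 10, and Tnf, Il1b and Il1a were bright on the day 10 array only. The windows are from build GRCm38.p6: Il33 start 1 at chr19:29924863-29925112 and start 2 at chr19:29945540-29945789, both on the plus strand, Il18 at chr9:50554450-50554699 on the plus strand, Tnf at chr17:35202008-35202257, Il1b at chr2:129371140-129371389 and Il1a at chr2:129309973-129310222, these 3 on the minus strand. They are written 5′ to 3′ on the strand of the gene, and capitals mark matches to GGAATG, the core bound by the TEAD factors through which the Hippo effectors YAP and TAZ act, or to the AP-1 site TGANTCA, on either strand.
Il33 start 1: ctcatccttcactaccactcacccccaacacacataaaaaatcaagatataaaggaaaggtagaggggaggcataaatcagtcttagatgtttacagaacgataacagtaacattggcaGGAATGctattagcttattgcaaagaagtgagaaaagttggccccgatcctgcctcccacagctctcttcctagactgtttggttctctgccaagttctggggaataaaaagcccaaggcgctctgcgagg
Il33 start 2: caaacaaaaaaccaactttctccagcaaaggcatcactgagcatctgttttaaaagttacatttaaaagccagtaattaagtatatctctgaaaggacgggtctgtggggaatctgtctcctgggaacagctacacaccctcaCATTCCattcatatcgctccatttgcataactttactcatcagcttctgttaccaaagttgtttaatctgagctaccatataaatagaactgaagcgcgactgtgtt
Il18: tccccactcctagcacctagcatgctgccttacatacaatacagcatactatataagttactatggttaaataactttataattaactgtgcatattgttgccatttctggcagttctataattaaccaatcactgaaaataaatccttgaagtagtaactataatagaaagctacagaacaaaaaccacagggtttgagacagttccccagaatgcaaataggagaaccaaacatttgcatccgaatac
Tnf: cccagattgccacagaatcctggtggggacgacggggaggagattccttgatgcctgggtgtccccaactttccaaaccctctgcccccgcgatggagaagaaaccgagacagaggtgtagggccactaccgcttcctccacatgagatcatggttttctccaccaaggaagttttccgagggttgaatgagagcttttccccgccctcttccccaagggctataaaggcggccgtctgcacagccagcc
Il1b: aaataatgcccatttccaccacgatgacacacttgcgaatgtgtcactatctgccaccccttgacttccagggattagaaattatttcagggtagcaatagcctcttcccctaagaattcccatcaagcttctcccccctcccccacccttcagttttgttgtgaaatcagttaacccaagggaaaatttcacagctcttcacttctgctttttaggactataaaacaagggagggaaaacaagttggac
Il1a: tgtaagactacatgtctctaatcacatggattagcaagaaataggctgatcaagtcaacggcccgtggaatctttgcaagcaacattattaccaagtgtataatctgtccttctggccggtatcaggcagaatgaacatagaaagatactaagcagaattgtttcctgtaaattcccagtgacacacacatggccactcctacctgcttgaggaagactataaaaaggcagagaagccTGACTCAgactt

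The GGAATG core lay 131 bases before the first Il33 start and, on the opposite strand, 107 bases before the second. It occurred in 5 of the 14 member windows and in 12.6% of the 32851 promoter windows of this length. The AP-1 site lay 12 bases before the Il1a start, and occurred in 2 of the 14 member windows and in 6.75% of all windows. The NF-κB consensus occurred in 1 member window, that of the second Il1r1 start, where it overlapped a GGAATG core, and in 7.25% of all windows. None of the 3 motifs was found in the Tnf, Il1b or Il18 windows. A match is a run of letters and not a measured binding site, and a window without one says nothing of sites elsewhere.

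Il33 was the member that rose first and was well above background on all 7 arrays. Its level, the log2 signal minus the 75th percentile of the array, was 2.27 and 1.80 on the control arrays, 3.83 and 4.23 at day 4, 4.38 and 4.71 at day 7, and 5.91 at day 10. The signal itself was 1519 and 1288 in the controls, 5598 and 6781 at day 4, 6933 and 9438 at day 7, and 32885 at day 10. Every knockout array was above both controls, and the ranges of the groups did not overlap. With at most 2 arrays a group this means little, since the groups did not overlap for Il18 either, also where it was not called. The share of all features without overlap is not given here. At day 7 Il33 was 5.69-fold higher than in the controls (log2 difference 2.51 ± 0.28 SE, 2 arrays against 2, limma with Benjamini-Hochberg adjustment over all features, adjusted p = 0.0071). It was 14.7-fold higher at day 10 (log2 difference 3.88 ± 0.35 SE, adjusted p = 0.00083 by limma). At day 4 it was 3.98-fold the control level (log2 difference 1.99 ± 0.28 SE), which did not pass after adjustment (unadjusted p = 0.000362, adjusted p = 0.15 by limma), in a comparison where 8 features were called. In bulk RNA of isolated cells, more RNA per cell and more cells of an expressing type cannot be told apart.

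**Figure D1:**
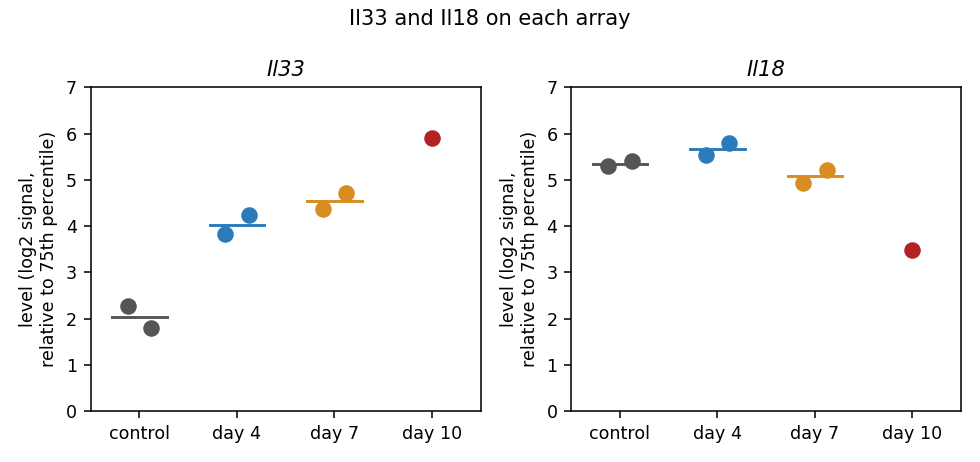
Levels of Il33 and Il18 on each of the 7 arrays by group, as log2 signal relative to the 75th percentile of the array. Each point is 1 array and each line the mean of 2 arrays. Il33 lies between 1.80 and 2.27 in the controls and at 5.91 on the day 10 array, while Il18 lies between 4.93 and 5.79 on 6 arrays and at 3.48 on the day 10 array.

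Day 4 and day 7 were neighbours in the order of Il33 levels that did not differ beyond their spread (log2 difference 0.52, 95% interval -0.17 to 1.20, adjusted p = 0.41 by limma). Day 10 lay 2.58-fold above day 7 (log2 difference 1.37 ± 0.35 SE, adjusted p = 0.043 by limma), a call that rests on all 7 arrays. Leaving out any 1 of the 6 control, day 4 and day 7 arrays gave an adjusted p between 0.0546 and 0.107. Day 4 against control and day 10 against day 7 are the comparisons within a row of the slide. The Il33 level was higher on the day 4 arrays than on the controls, and higher on the day 10 array than on the day 7 arrays. The first difference was not called, and the second rests on 1 day 10 array. The part of slide position in the Il33 levels was not tested.

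The number of members called can be set against all features. At day 4, 0 of the 4 tested members were called, where 0.0323% of the 24760 features were (8 features, with 1542 features and 1 member, Il33, at an unadjusted p under 0.05). At day 7, Il33 alone was called, where 7.46% of features were called and 2.96% were called higher. At day 10 Il33 was called higher and Il18 lower, the 2 members well above background on all 7 arrays, where 28.1% of features were called, 10.4% higher and 17.6% lower. Tnf and Il1r2 were called higher too, but each had entered the test through the day 10 array and 1 other, so nothing is read from their calls. None was called between day 4 and day 7 (2.67% of features called, 4305 features and 2 members, Il18 and Tnf, at an unadjusted p under 0.05). Between day 7 and day 10 Il33 and Il18 were called, as were Tnf and Il1r2 under the same limit (17.9% of features). The day 10 array enters its comparisons as a single sample assumed to vary like the other groups.

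Some markers of the cells that IL-33 acts on were called at day 7 and day 10. Among the 9 mast cell and group 2 innate lymphoid cell markers tested none was called at day 4, with a median log2 difference of -0.01, and 3 were called higher at day 7, namely the mast cell protease Mcpt4 (log2 difference 2.75 ± 0.36 SE), Gata3 (1.74 ± 0.38 SE) and Areg (2.10 ± 0.37 SE), with adjusted p of 0.0114, 0.0497 and 0.0259 by limma. At day 10, 8 of the 9 were called higher and 1, Kit, lower. Over all features 2.96% were called higher at day 7, and 10.4% were called higher and 17.6% lower at day 10. Cpa3, 1 of the 8, was well above background on the day 7 and day 10 arrays only, through which it entered the test. Amphiregulin, the product of Areg, is made by epithelial cells too, and the summed level of the other 12 markers was 1.75 to 2.67 on the control and day 4 arrays, 8.94 and 11.2 at day 7 and 15.1 at day 10. Cma1, Ms4a2, Il5 and Il13, 4 defining markers of these cells, did not exceed background on any of the arrays. Fibroblast markers, another possible source of Il33, summed to 1.12 to 1.90 on the other 6 arrays and 1.04 on the day 10 array with Col1a1, Lum, Pdgfra, Pdgfrb and Postn never well above background, while Dcn was called lower at day 7. Endothelial markers summed to 8.06 to 10.8 and 8.80, most of it from Kdr, and without Kdr to 1.07 to 2.11 and 3.54, with Cdh5, Tek and Cldn5 never above background. Among them Tie1, an endothelial receptor kinase, was at least 1.97-fold higher at day 7 than in the controls and at least 29.5-fold higher at day 10. Tie1 was well above background on the day 7 and day 10 arrays only. It entered the test through those arrays, so nothing is read from its calls. Egfl7 was called higher at day 10, and Esam lower at day 7 and day 10. The part of these cells in the Il33 signal was not tested.

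Il18 was lower at day 10, and was called only in the comparisons with the day 10 array. Its level was 5.30 and 5.41 in the controls, 5.54 and 5.79 at day 4, 4.93 and 5.22 at day 7, and 3.48 at day 10. The 6 earlier arrays lay between 4.93 and 5.79, and the day 10 array was below all of them. Il18 was 3.66-fold lower at day 10 than in the controls (log2 difference -1.87 ± 0.28 SE, adjusted p = 0.0049 by limma) and 3.02-fold lower than at day 7 (log2 difference -1.60 ± 0.28 SE, adjusted p = 0.013 by limma). With the normexp background correction the first difference was -1.02 (adjusted p = 0.21 by limma) and the second -1.32 (adjusted p = 0.15 by limma). The differences from control at day 4 (0.31, 95% interval -0.24 to 0.87) and day 7 (-0.28, 95% interval -0.83 to 0.28) did not pass, and neither did day 7 against day 4 (-0.59, 95% interval -1.15 to -0.03, adjusted p = 0.26 by limma). Some markers of the absorptive epithelium were also lower on the day 10 array. Of the 12 epithelial markers, 4 were called lower there, Fabp1 (7.90-fold), Fabp2 (8.70-fold), Cdx1 (7.22-fold) and Vil1 (2.68-fold), and 2 were called higher, Krt18 (3.29-fold) and Cdh1 (2.45-fold). Over all features 17.6% were called lower at day 10 and 10.4% higher. The part of these markers in the Il18 difference was not tested.

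**Figure D2:**
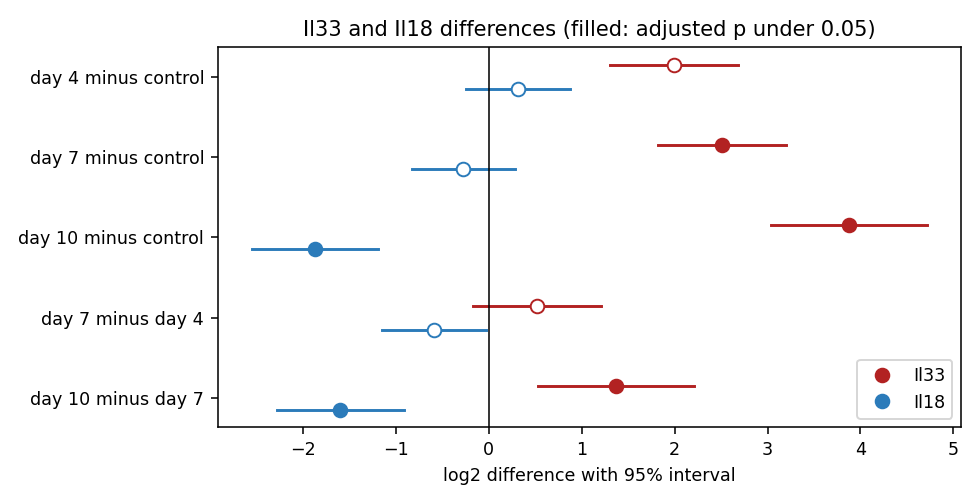
Log2 differences of Il33 (red) and Il18 (blue) in the 5 comparisons, with 95% intervals from the fit over all features. Filled points passed an adjusted p of 0.05. The Il33 differences from control are 1.99, 2.51 and 3.88 at day 4, day 7 and day 10, and the Il18 difference is called only against the day 10 array, at -1.87 from control and -1.60 from day 7.

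The binding protein and the receptor of IL-18 were called at day 7. Il18bp, whose product is a secreted protein that neutralises IL-18, had levels of -0.20 and -0.01 in the controls, 0.87 and 0.17 at day 4, 2.65 and 1.60 at day 7, and 0.32 at day 10. Both day 7 arrays lay above the other 5, and Il18bp was 4.70-fold higher at day 7 than in the controls (log2 difference 2.23 ± 0.41 SE, adjusted p = 0.030 by limma). Il18r1, which encodes the ligand-binding chain of the IL-18 receptor and is the next gene after Il1rl1 on chromosome 1, had levels of -3.36 and -3.54 in the controls, -3.63 and -3.43 at day 4, and -2.38 at day 10, and was not well above background on either day 7 array. It was at least 1.60-fold lower at day 7 than in the controls (adjusted p = 0.015 by limma) and at least 3.35-fold higher at day 10 than at day 7 (adjusted p = 0.0028 by limma). With 1 array left out at a time the Il18bp difference from control at day 7 ranged from 1.71 to 2.76 and was called only without day 7 replicate 2. The Il18r1 difference was not called without either control array or without day 7 replicate 1. Il18rap, the second chain of that receptor, was well above background on the day 10 array only, at a level of -0.18 against -6.67 to -5.56 on the other arrays.

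Tnf was dim until day 10. Its probe was printed in 10 spots, whose mean signal was 6.30 and 5.75 in the controls, 3.77 and 3.98 at day 4, 26.0 and 7.43 at day 7, and 1577 at day 10. The lowest signal called well above background was at most 23.6 on any of these arrays, and only day 7 replicate 1 (6 of 10 spots above background) and the day 10 array (10 of 10 spots) gave a measured signal. The 10 spots on the day 10 array varied by 2.63% (coefficient of variation), which measures the reading of 1 sample and not the spread between mice. Tnf at day 10 was at least 70.4-fold higher than in the controls. It was at least 43.2-fold higher than at day 7, with the lowest signal above background taken for replicate 2. With 1 array left out the fitted log2 difference from day 7 ranged from 5.21 to 7.13.

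The day 7 arrays differed from each other in Tnf. The log2 difference of day 7 from control was 1.19 ± 0.59 SE and was not called (adjusted p = 0.30 by limma). It is a fitted value, since the controls were below background. Without day 7 replicate 2 it was 2.14, with day 7 as 1 array assumed to vary like the other groups. It was 2.78 (adjusted p = 0.0090 by limma) when fitted on the authors' deposited values. Tnf entered the test through day 7 replicate 1 and the day 10 array, so nothing is read from that call. In the authors' deposited table day 7 replicate 2 stands at 62.1, the signal of 1 of its 10 spots, which the scanner software marked as an outlier, while the mean of all 10 spots was 13.5. Without day 7 replicate 2 the difference of day 7 from day 4 was 2.93, against 1.97 with all arrays (adjusted p = 0.16 by limma).

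Il1b, like Tnf, was bright on the day 10 array. The mean signal of its 10 spots was 9.78 and 6.04 in the controls, 4.74 and 12.4 at day 4, 14.7 and 12.1 at day 7, and 1037 at day 10. At most 1 of the 10 unmarked spots was above background on any array before day 10, and 10 of 10 were on the day 10 array, with a coefficient of variation of 2.82%. Il1b at day 10 was at least 46.3-fold higher than in the controls and at least 33.3-fold higher than at day 7. Because it was bright on 1 array it did not enter the main test.

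**Figure D3:**
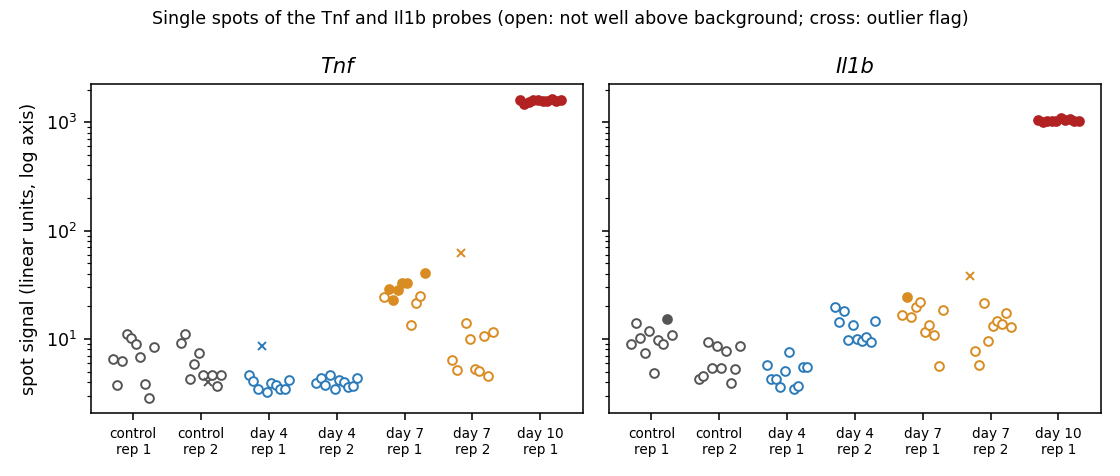
Signals of the 10 spots of the Tnf probe and of the Il1b probe on each array, on a log axis. Filled circles were well above background, open circles were not, and crosses were marked as outliers by the scanner software. The day 10 spots lie near 1577 for Tnf and 1037 for Il1b, and the one marked Tnf spot of day 7 replicate 2 is at 62.1.

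Il1a, the neighbour of Il1b on chromosome 2, was weaker and was also seen on the day 10 array alone. Its signal was between 3.44 and 4.91 on the other 6 arrays and 107 at day 10, at least 4.76-fold higher than in the controls and at least 3.42-fold higher than at day 7.

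The antagonist and the decoy receptor were bright on the day 10 array together with the ligands. The signal of Il1rn was between 4.27 and 11.9 on the other 6 arrays and 239 at day 10, at least 10.7-fold above the controls and at least 7.66-fold above day 7. The signal of Il1r2 was 11.1 and 4.39 in the controls, 9.56 and 24.2 at day 4, 9.24 and 5.37 at day 7, and 1308 at day 10. Only day 4 replicate 2 among the earlier arrays was above background, and narrowly. Il1r2 at day 10 was at least 58.4-fold higher than in the controls and at least 42.0-fold higher than at day 7.

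The signalling receptors gave little or no signal. Il1r1, the signalling receptor for IL-1α and IL-1β, did not exceed background on any of the 7 arrays, with signals from 3.76 to 5.46 on the other 6 arrays and 20.2 at day 10. Of the 3 probes for Il1rl1, the receptor for IL-33, 1 was above background at day 10 (signal 70.8, against 3.19 to 6.07 elsewhere), at least 3.16-fold above the controls. The other 2 probes of Il1rl1 were above background on no array, with signals of 5.87 and 5.36 at day 10, so the probes of this gene disagreed. Il1rap, the shared accessory chain of the IL-1 and IL-33 receptors, was measured on all 7 arrays and its differences from control were -0.50 at day 7 (adjusted p = 0.39 by limma) and -0.63 at day 10 (adjusted p = 0.26 by limma).

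**Figure D4:**
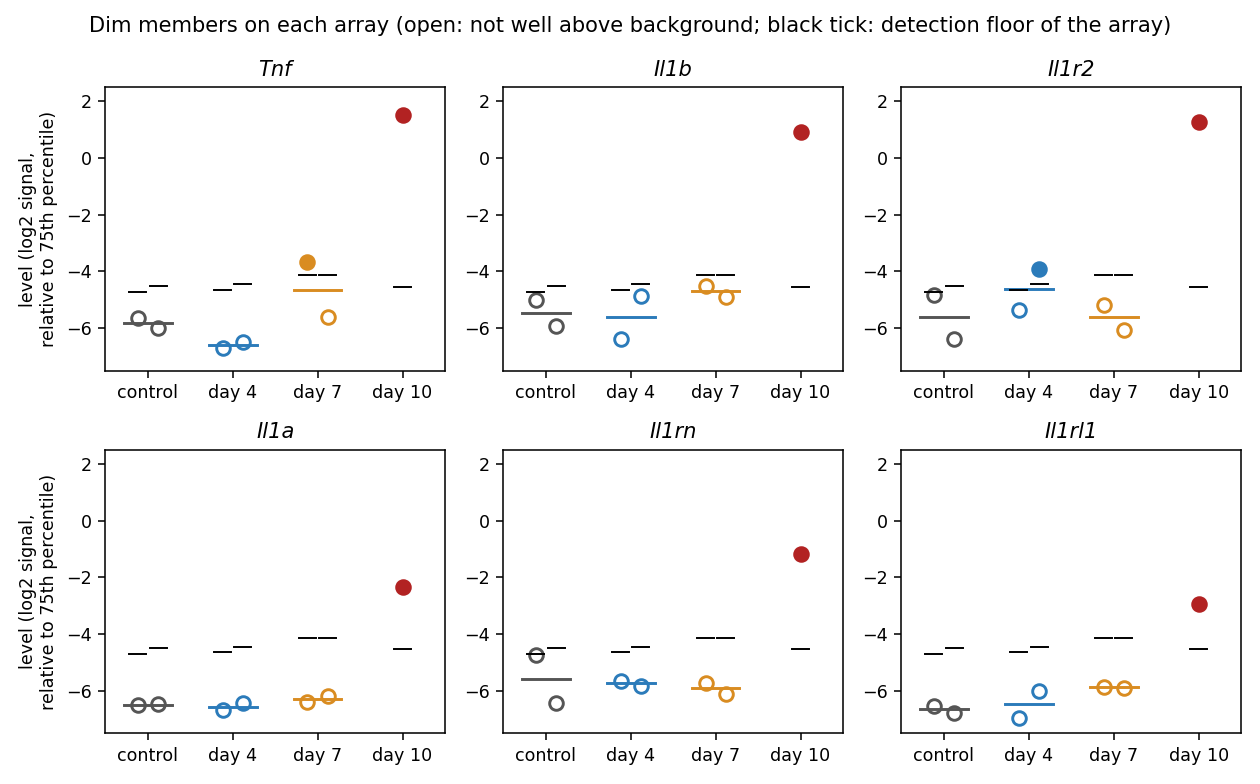
Levels of Tnf, Il1b, Il1r2, Il1a, Il1rn and the brightest Il1rl1 probe on each array, as log2 signal relative to the 75th percentile of the array. Filled points were well above background, open points were not, and the black ticks mark the lowest level called above background on that array, between -4.72 and -4.13. All 6 genes are above their tick on the day 10 array, and before it only Tnf on 1 day 7 array and Il1r2 on 1 day 4 array.

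Of the 9 members 4, Il1a, Il1b, Il1rn and Il1rl1, were well above background on the day 10 array and on no other. Over all genes this held for 690 of 20863 genes, or 3.31%. Both counts rest on 1 mouse, and these 4 genes have no test, since a gene bright on a lone array had to differ there.

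Some markers of myeloid cells and neutrophils were also higher on the day 10 array. Their summed level was 176 to 265 on the other 6 arrays and 473 on the day 10 array, where 14 of 15 were well above background and Cd163 was not. Without S100a8 and S100a9 it was 175 to 264 on the other 6 arrays and 271 on the day 10 array. Most of this came from Csf3r and Itgam, which were bright on all 7 arrays, so the sum says little of the dimmer markers. Of the 12 tested, 6 were called higher at day 10, among them the macrophage markers Csf1r, Mrc1 and Cx3cr1, and 1, Mpo, lower, while Itgam, Csf3r, Lyz2, Fcer1g and Tyrobp were not called. S100a8 and S100a9, which encode the calprotectin subunits abundant in neutrophils, had levels of 5.71 and 7.22 on the day 10 array, S100a8 was below background on the other 6, and S100a9 was above it on both day 7 arrays. Markers of T cells and intraepithelial lymphocytes went the other way, with a summed level of 224 to 351 on the other 6 arrays and 18.1 on the day 10 array, and 12 of 13 were called lower at day 10. Over all features 10.4% were called higher at day 10 and 17.6% lower. S100a9, 1 of the 6 myeloid markers called higher, entered the test through the day 7 and day 10 arrays only. B and plasma cell markers summed to 1.21 to 3.82 and 1.11, with Cd79a and Tnfrsf17 never above background. The part of these cells in the day 10 signals of Tnf, Il1b, Il1r2, Il1rn and Il18 was not tested.

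The other genes of the pathways were counted from 6 lists of ligands, receptors, inflammasome parts, the TNF axis, signalling from MyD88 to NF-κB, and NF-κB feedback genes, of which 65 of 80 were tested. At day 4 none was called. At day 7, 1 was called higher, Il18bp, and 3 lower, Il18r1, Aim2 and Irak3, or 6.15% of the 65 where 7.46% of all features were called, with a median log2 difference of 0.17 over the 65 against -0.08 over all features. Irak3, an inhibitory member of the IL-1 receptor-associated kinases, was at least 2.35-fold lower (adjusted p = 0.019 by limma). Aim2, a cytosolic DNA sensor, was called lower too (adjusted p = 0.042 by limma). Both were not well above background on either day 7 array. Aim2 was above it only on 1 of the 2 control arrays and on both day 4 arrays. It entered the test through these arrays, so nothing is read from its calls at day 7 or day 10. The day 7 count fell to 0 without control replicate 1, to 1 without either day 4 array or without day 7 replicate 1, and to 2 without control replicate 2. With median scaling it was 2 higher and 3 lower, and with normexp 4 higher and none lower.

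At day 10, 17 of the 65 were called higher and 5 lower, or 33.8%, where 28.1% of all features were called, with a median log2 difference of 0.48 against -0.15 over all features. With median scaling the split was 13 higher and 7 lower. The feedback list had the highest median of the 5 lists with tested genes, at 1.45. In it 6 of 14 genes were called higher (42.9%) and none lower, where 10.4% of all features were called higher. Tnfaip3, which encodes the ubiquitin-editing inhibitor A20, was 18.8-fold higher (log2 difference 4.23 ± 0.42 SE, adjusted p = 0.0012 by limma). Tnfaip2, a TNF-induced gene, was 40.5-fold higher (log2 difference 5.34 ± 0.41 SE, adjusted p = 0.00056 by limma). Icam1, an adhesion molecule for leukocytes, was at least 44.2-fold higher and was not well above background on either control array. Icam1, 1 of the 6, entered the test through the day 10 array and 1 day 7 array, so nothing is read from its call. The remaining 3, Nfkbie, Tnip2 and Zc3h12a, had log2 differences of 2.45, 1.99 and 1.87 and were named after their values were seen.

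The inflammasome genes were divided at day 10, with 3 of 11 called higher (27.3%) and 3 lower, where 10.4% of all features were called higher and 17.6% lower. Casp4, which encodes the caspase that senses intracellular lipopolysaccharide, was 3.89-fold higher (log2 difference 1.96 ± 0.29 SE, adjusted p = 0.0047 by limma). Nlrp1b, an inflammasome sensor, was 24.8-fold lower (log2 difference -4.63 ± 0.31 SE, adjusted p = 0.00040 by limma). Aim2, 1 of the 3 called lower, entered the test through control and day 4 arrays only, so nothing is read from its call. Pycard, the adaptor ASC, had a log2 difference of -2.97, Mefv one of 2.89 and Nek7 one of 1.53, all 3 called and named after their values were seen. Nlrp3, the best-known sensor for IL-1β processing, did not exceed background on any of the arrays.

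In the TNF axis 4 of 17 were called higher at day 10 and 1 lower, or 29.4%, a share near the 28.1% of all features. Ripk3, the kinase of necroptosis, was 3.16-fold higher (adjusted p = 0.025 by limma), Casp8, the initiator caspase of death receptors, 2.05-fold higher (adjusted p = 0.045 by limma), and Birc3, an inhibitor of apoptosis that acts in the TNF receptor complex, 2.30-fold higher (adjusted p = 0.033 by limma). The other 2 called, Traf1 (log2 difference 2.48) and Traf5 (-1.93), are adaptors of TNF receptors and were named after their values were seen. Mlkl, the effector of necroptosis, had a log2 difference of 1.43 at day 7 (adjusted p = 0.078 by limma) and 0.63 at day 10 (adjusted p = 0.35 by limma). Ltbr, the lymphotoxin receptor, had one of -0.03 at day 10. In the list from MyD88 to NF-κB, 3 of 19 were called higher and 1 lower at day 10, or 21.1%, below the share of all features. The higher ones were Ikbkb, which encodes a kinase that releases NF-κB (3.23-fold), and the NF-κB subunit genes Rela (2.15-fold) and Nfkb2 (2.25-fold), and the lower one was Irak2 (2.11-fold), again named after their values were seen. Myd88 itself, the adaptor of the IL-1 and IL-33 receptors, had a log2 difference of 0.91 (adjusted p = 0.065 by limma).

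**Figure D5:**
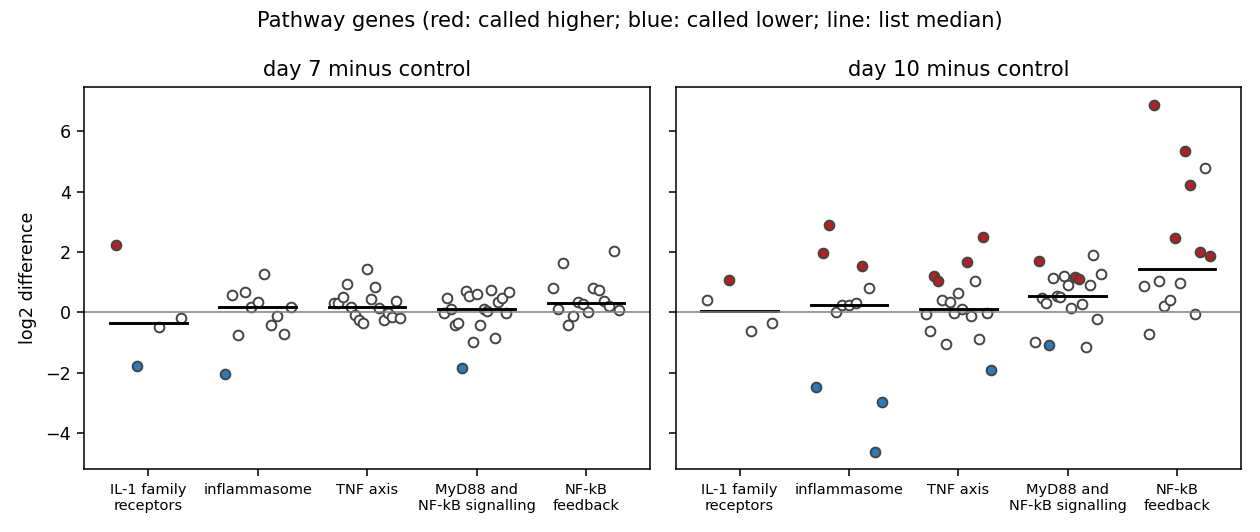
Log2 differences of the tested pathway genes from control at day 7 and at day 10, by list. Each point is 1 gene, red where called higher, blue where called lower and open where not called, and the line is the list median. At day 7 the 4 called genes are scattered over 3 lists, and at day 10 the NF-κB feedback list has a median of 1.45 with 6 of 14 genes called higher. Over all features 10.4% were called higher at day 10.

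Profiles like those of the tested members were sought among the 13801 other genes with a symbol, by Pearson correlation over the 7 arrays, as a description. For Il33 the nearest were Hrct1 (r = 0.992), Zmynd15 (r = 0.980) and Lamb2, a laminin chain (r = 0.977). Hrct1 had levels of -5.85 and -6.61 in the controls, -3.50 and -3.59 at day 4, -2.95 and -2.48 at day 7, and -0.24 at day 10, an order over the groups like that of Il33. For Il18 they included Lmtk3 (r = 0.996) and Armh4 (r = 0.995), each lowest on the day 10 array. For Tnf they were Slc35b3, Mfsd5 and Dnmt3l (r = 0.996, 0.995 and 0.994), and for Il1r2 Hps6, Usp24 and Pabpc1l (r = 0.989, 0.982 and 0.981), each highest on the day 10 array. The arrays share 1 slide, the day 10 array lies far from the other 6 in Tnf and Il1r2, and a correlation takes no account of size, since Hps6 ranged from 1.11 to 1.61 only.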

How the data were processed

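Agilent 1-colour arrays of 7 RNA samples were analysed. The intensity values are the processed signals of Agilent Feature Extraction 11.5.1.1, array design 028005, deposited as background-subtracted and not scaled between arrays, per the file headers. Other columns of the deposited scanner output, the flags for outlier spots and for signals well above background, were used as the software set them, per the file headers. The authors' deposited value table was linear and, for 100% of probes with a single spot, equal to these signals within 0.1%, with column medians from 15.2 to 30.5. The values are not log transformed in either file.

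The files used here hold no gene name per probe, so accessions were named through a RefSeq table of GRCm38.p6, by which 27509 of 55681 probes had a symbol and 28172 had none. Control spots and outlier spots were left out, spots of a probe were averaged as log2 values, and each array's 75th percentile was subtracted. Probes well above background on fewer than 2 of 7 arrays were left out, and a gene took its brightest probe, which left 24760 features. limma 3.58.1 in R 4.3.3 fitted 1 mean per group with lmFit and eBayes over all 7 arrays (3 residual and 3.16 prior degrees of freedom), 2-sided, with Benjamini-Hochberg adjustment and calls at 0.05. "At least" folds compare the bright group's mean with, per array of the dim group, the higher of its own signal and the lowest signal called well above background. Some probes above that lowest signal were not called, such as Gata3 on control replicate 1 (level -3.76, lowest called level -4.72). The folds are therefore cautious estimates and not strict lower bounds. They hold for the main setting only. Mean signals of several spots are geometric means except where the authors' table is compared. The number of arrays limits the precision.

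Alternatives were other scalings, quantile normalization, normexp with an offset of 50 on the median signals (the files used here hold no mean signal), other filters, the authors' table, only the groups compared, a replicate block and leaving out arrays. Figures were drawn with matplotlib 3.10.9. The fit was tested on simulated data. Named genes were all members, up to 5 genes per list with the smallest p at day 7 against control, and the 3 most correlated genes per tested member, of which 1 is not reported here. Members and lists were chosen with earlier results of these data known. Sequences are those of RefSeq, and all 9 members had a promoter entry.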

Additional observations from a re-analysis of the deposited data

Results flagged for a closer look

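Each of the 4 tested members was called between the day 7 arrays and the day 10 array. Tnf and Il1r2 had entered the test through the day 10 array and 1 other, so nothing is read from their calls. The log2 difference of day 10 minus day 7 was 6.17 for Tnf, 6.88 for Il1r2, 1.37 for Il33 and -1.60 for Il18. The values of Il1r2 and Tnf are fitted differences, since both day 7 arrays were below background for Il1r2 and 1 of 2 for Tnf. Their "at least" folds are 42.0 and 43.2. The day 10 array is 1 mouse, so the spread between mice at day 10 was not measured.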

How the results depend on the processing

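Il33 at day 7 against control was called under all 19 alternatives run for it (log2 difference 2.27 to 2.74) and at day 10 under all 18 (3.64 to 4.24). Tnf and Il1r2 at day 10 were called under all 17 alternatives that tested them, and Il18 under 17 of 18. Tnf and Il1r2 entered these tests through the arrays where they were bright. Il33 at day 10 against day 7 was called under 9 of 18, and not without a filter (adjusted p = 0.080 by limma), with only the groups compared (0.105) or with the replicate block (0.067). The deviations of same-numbered arrays from their group means had r = 0.0083 for control and day 4, 0.086 for control and day 7, and 0.25 for day 4 and day 7. Whether the numbers pair the arrays cannot be told from 1 pair of arrays per group. The replicate block also left 1 pathway gene called between day 4 and day 7 in place of 2.

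With the authors' table Tnf was called at day 7 and between day 4 and day 7. It entered the test through day 7 replicate 1 and the day 10 array, so nothing is read from these calls. Members called at day 7 then numbered 2, and members called between day 4 and day 7 numbered 1. At day 10 against control they numbered 9 with no filter, 8 with the filter added after the data were seen (above background on every array of at least 1 group, which the lone day 10 array meets by itself) and 2 among features above background on all 7 arrays. For day 10 against day 7 these were 7, 8 and 2, also 2 with only the groups compared, and 3 when any 1 array was left out. The count of 9 includes Il1r1, which was above background on no array. The counts of 7, 8 and 9 include Il1a, Il1b, Il1rn and Il1rl1, bright on the day 10 array only. Nothing is read from these larger counts, and the share of all features called with these filters is not given here.

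Pathway genes called at day 7 numbered 1 with no filter or with only the groups compared, and 0 to 3 when 1 array was left out. Between day 4 and day 7 they numbered 1 with normexp, 0 with no filter or among features above background on all 7 arrays, and 0 to 2 when 1 array was left out. For day 10 against day 7 they numbered 12 with only the groups compared, in place of 19 of 65 (29.2%, where 17.9% of all features were called). The share of all features called under these alternatives is not given here, so nothing is read from these counts.

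Uncalled differences changed sign in a few cases. Il18 at day 7 was 0.30 with normexp. Il1r2 was -0.0451 at day 4 and 0.0335 between day 4 and day 7 with normexp. At day 7 Il1r2 was 0.0389 with scaling to detected probes, 0.0164 with quantile normalization and 0.0217 with the authors' table. It ranged from -0.79 to 0.78 when 1 array was left out, with 0.78 without control replicate 1 and 0.44 without day 7 replicate 2. The cause was not tested. The offset of normexp shrinks differences of dim probes by construction, to 3.24 for Il1b and 0.85 for Il1a at day 10. The median of all features at day 10 was -0.15, 0.08 with scaling to detected probes and -0.32 with median scaling, which changed no direction of the members called there. Signals below background, 7 arrays and 1 mouse at day 10 limit what can be said.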

Other observations

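In the authors' deposited table, probes printed in several spots of which only some were above background mostly carry the mean of those spots alone. This held within 1% for 81.5% to 96.3% of such probes per array. For Il1b it gives 15.3 on control replicate 1, 24.4 on day 7 replicate 1 and 37.8 on day 7 replicate 2, where the means of all 10 spots were 10.2, 15.8 and 15.4. On the day 10 array, where 10 of 10 spots were above background, the table and the mean of all spots were both 1038.

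Among pathway genes that did not enter the main test, Il18rap, Lta and Rel were well above background on the day 10 array only. Lta, which encodes lymphotoxin alpha and is the next gene to Tnf on chromosome 17, had a level of -4.18 there and Rel, an NF-κB subunit, one of -4.19. Il1rl2, Il1rapl1 and Il1f10 did not exceed background on any of the 7 arrays.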
